A study of Mus musculus with 4 samples.

Results

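Solute carrier genes, named Slc with a family number, encode the membrane transporters that move amino acids, ions, metals, nucleosides, vitamins and other metabolites into and out of cells and organelles. The peaks described here are those of BCL6, a zinc finger repressor, that lay within 50 kb of the promoter of such a gene. They were chosen by the gene name that the authors attached to each peak and by the deposited distance to its promoter. Slc2a4 was left out by the rule. This gave 61 of 5741 peaks: 20 of 1785 in the inguinal list and 41 of 3956 in the perigonadal list, at 17 and 36 genes. The 45 genes of either list belong to 25 of the 51 Slc families.

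Chromatin immunoprecipitation with sequencing had been done on adipocyte nuclei of C57BL/6 mice that were Adipoq-Cre;Sun1-sfGFP-myc. Adipoq-Cre acts in adipocytes, and Sun1-sfGFP-myc then tags the nuclear envelope, so that nuclei can be collected on c-myc beads. Fixed inguinal (subcutaneous) or perigonadal (visceral) fat was the source, and a custom guinea pig antibody against mouse Bcl6 the reagent. Fixation was with the crosslinker DSG for 30 min and with 1% formaldehyde for 10 min. Each of the 2 depots was represented by 1 BCL6 library and 1 input library. All 4 samples used here carried this genotype, and none came from animals lacking BCL6. Age, sex, and whether fat of several animals was pooled, are not given in the sources used here. A single library per depot gives no measure of variation between animals, so the depots were described side by side and no p-value is given.

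BCL6 binds DNA through its zinc fingers and recruits corepressor complexes with histone deacetylases. A peak beside a gene therefore marks a place where BCL6 could act, and does not tell whether the gene is silenced. Transport across the plasma and mitochondrial membranes supplies adipocytes with the substrates for lipid storage, respiration and amino acid metabolism. The peak lists hold no expression values, so the adipocyte label of the nuclei could not be checked with them. Of 8 adipocyte marker genes, 2 had an inguinal peak within 50 kb (Lep and Cidec) and 1 a perigonadal peak (Lep). Of 12 marker genes of other cell types in fat, 0 had one in either list. Over all protein-coding genes the shares with such a peak were 4.25% and 8.88%, so these counts do not tell the cell types apart.

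The promoter sequences under the tallest promoter peaks of the solute carriers are shown first, because these 2 sites differ in composition and in sharing. Each is the 250 bases before a start site in the RefSeq table of GRCm38.p6, read 5′ to 3′ on the gene's strand, with the bases under the peak in capitals. Slc29a1 encodes the equilibrative nucleoside transporter ENT1. Its stretch is the minus strand of chr17:45592938-45593187, and 76 bases of it lay under the inguinal peak. Slc39a10 encodes the zinc importer ZIP10. Its stretch is the minus strand of chr1:46853619-46853868, and 112 bases lay under the perigonadal peak.
Slc29a1: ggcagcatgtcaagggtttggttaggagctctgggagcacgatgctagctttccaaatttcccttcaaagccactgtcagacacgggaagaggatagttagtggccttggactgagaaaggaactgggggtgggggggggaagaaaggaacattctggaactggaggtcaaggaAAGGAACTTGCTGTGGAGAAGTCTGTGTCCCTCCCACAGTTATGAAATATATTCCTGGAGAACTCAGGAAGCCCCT
Slc39a10: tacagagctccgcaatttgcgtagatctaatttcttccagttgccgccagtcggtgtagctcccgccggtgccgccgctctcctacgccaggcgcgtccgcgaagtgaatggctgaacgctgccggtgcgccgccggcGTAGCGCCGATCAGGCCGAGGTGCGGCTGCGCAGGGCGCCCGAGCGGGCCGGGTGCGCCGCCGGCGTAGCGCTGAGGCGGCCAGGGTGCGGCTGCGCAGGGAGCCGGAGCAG

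The Slc39a10 stretch was 71.6% G and C and held 37 CpG dinucleotides. The Slc29a1 stretch was 51.2% G and C and held 2. Over all 32851 promoter windows of the table the median was 52.4% and 6, and the 95th percentile of the CpG count was 31. The start sites of this table are not always those the authors used. The inguinal peak centre lay 25 bp from the RefSeq start of Slc29a1, but 519 bp from the authors' promoter. For the perigonadal peak of Slc26a6 both distances were 81 bp. The motif TTCCTNGAA, a core of the known BCL6 site, and the wider TTCNNNGAA, which every match of the first also meets, were searched on both strands of windows from 250 bases before to 50 after each start. Neither was found in the windows of Slc29a1, Slc39a10 or Slc26a6, the 3 solute carrier windows that a member peak overlapped. TTCCTNGAA was present in 1.59% of all windows, in 16.7% of the 66 windows that overlapped any inguinal peak and in 13.6% of the 118 that overlapped any perigonadal peak. For TTCNNNGAA the shares were 8.30%, 27.3% and 22.9%. Of the 372 windows of Slc genes, with or without a peak, 0.538% held the first motif and 5.91% the wider one. No genome sequence was used, so the remaining peaks were not searched.

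Solute carrier genes had BCL6 peaks about as often as protein-coding genes at large. Of 374 protein-coding Slc genes, 17 had an inguinal peak within 50 kb, 4.55% with a Wilson 95% interval of 2.86 to 7.16%, beside 4.25% of all 21899 protein-coding genes. A perigonadal peak was found for 37, 9.89% (7.26 to 13.3%), beside 8.88%. Both lists held a peak for 8, 2.14% (1.09 to 4.16%), beside 1.80%. These were 47.1% of the Slc genes with an inguinal peak and 21.6% of those with a perigonadal peak, beside 42.3% and 20.3% over all genes with a peak. The perigonadal number includes Slc66a2, which the list names by its older symbol Pqlc1 and which is not among the 41 peaks. The background shares lie inside the intervals of the solute carriers. The median length was 28.7 kb for Slc genes and 17.1 kb for all protein-coding genes. The part of gene length in these shares was not tested.

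The peak heights were close to those of the lists as a whole. The score of a peak is the authors' value, scaled within its list, and in 100% of peaks was a whole multiple, within its rounding, of 0.752 (inguinal) or 0.882 (perigonadal). This step is read here as 1 sequenced tag. Inguinal Slc peaks scored from 6.77 to 31.6 with a median of 9.025, or 12 tags, and all inguinal peaks within 50 kb had a median of 9.03. Perigonadal Slc peaks scored from 7.05 to 37.9 with a median of 9.70, or 11 tags, beside a median of 8.82. More than 12 tags supported 10 of 20 inguinal Slc peaks, 50% (29.9 to 70.1%), beside 44.4% of all, and 15 of 41 perigonadal ones, 36.6% (23.6 to 51.9%), beside 26%. Intervals on scores below are exact Poisson 95% intervals of the tags, and like the Wilson intervals they cover counting error only.

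**Figure D1:**
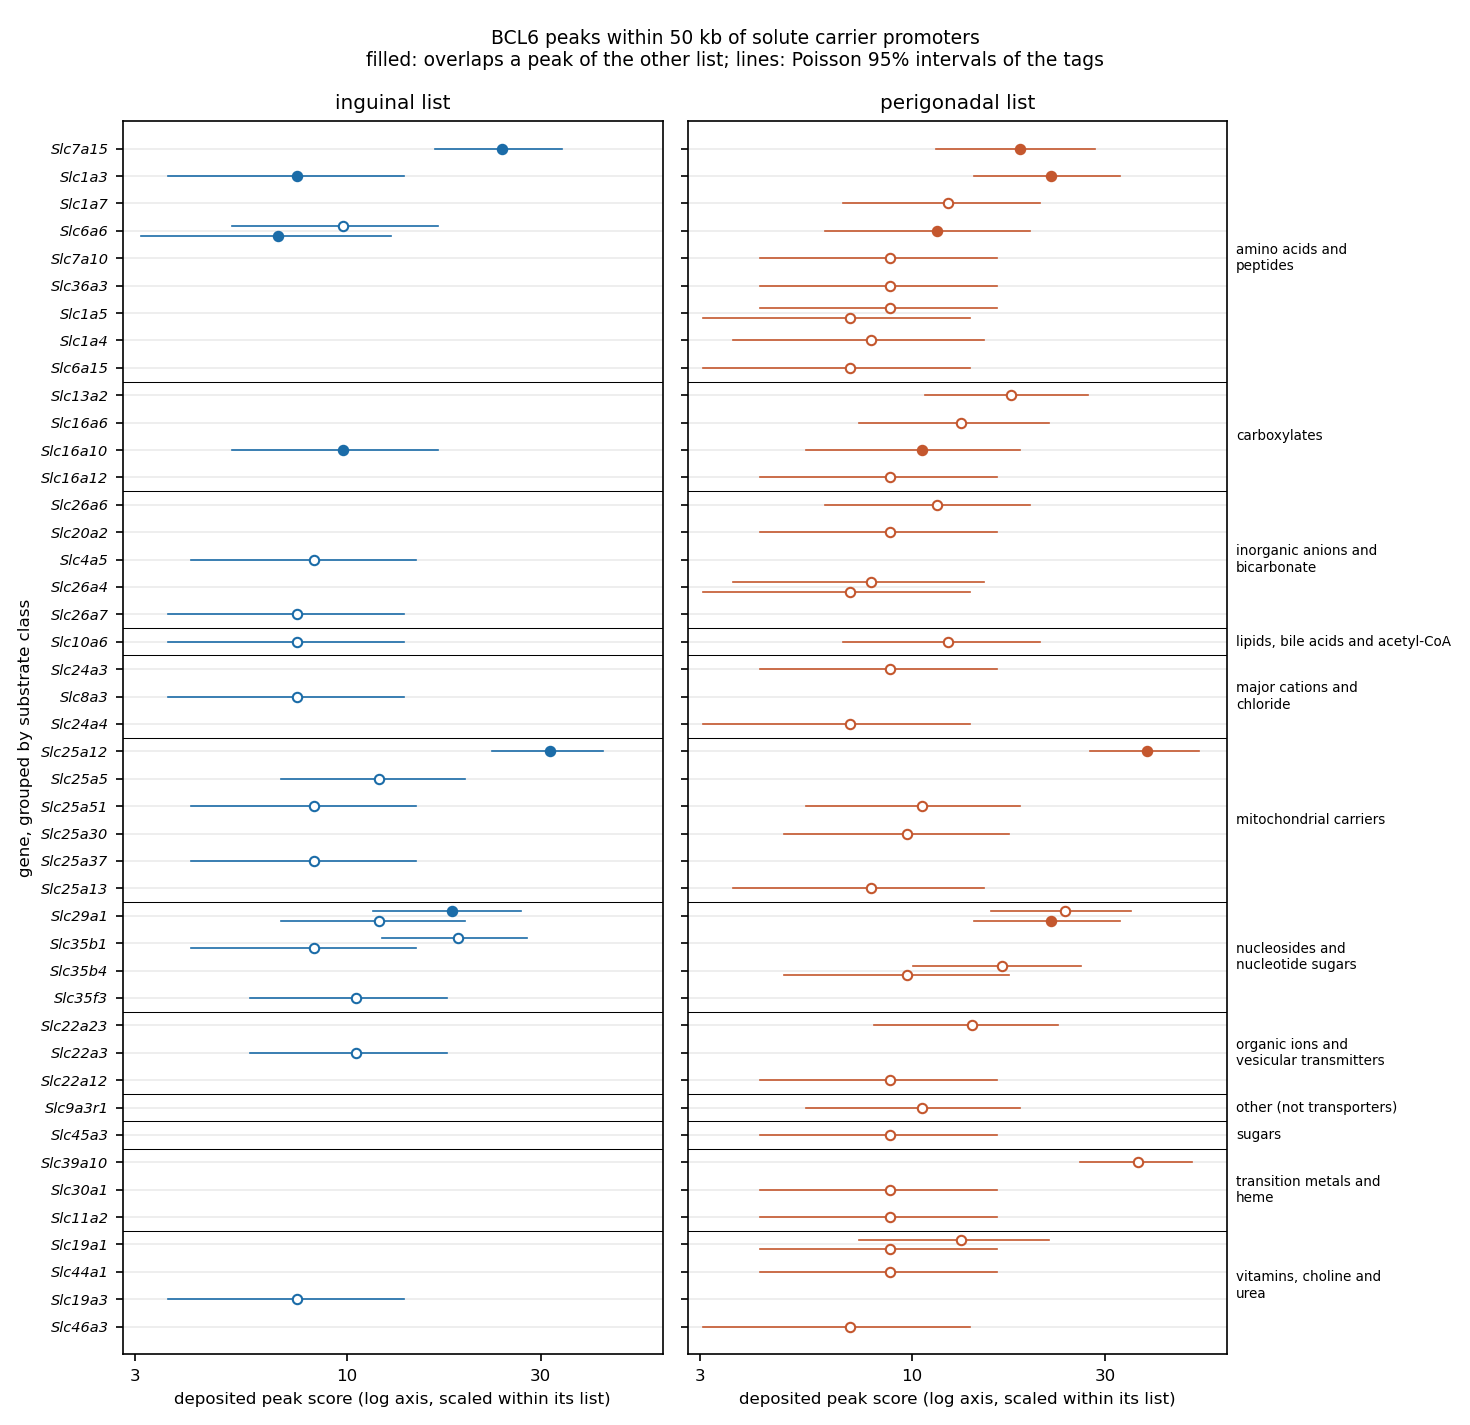
Deposited score (log axis) of the solute carrier peaks, all but 1 of the 61, by gene and substrate class, inguinal list on the left and perigonadal list on the right, with exact Poisson 95% intervals of the tags as lines and peaks shared between lists filled. Slc25a12 is the highest in each list, with 31.6 and 37.9, and most other peaks lie near 10.

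Sharing between depots was examined next. A peak was shared when it overlapped a peak of the other list by at least 1 bp. There were 6 shared pairs, at Slc25a12, Slc7a15, Slc29a1, Slc1a3, Slc16a10 and Slc6a6, and in each pair both lists named the same gene. They were 6 of 20 inguinal Slc peaks, 30.0% (14.5 to 51.9%), beside 29.6% of all inguinal peaks within 50 kb. They were 6 of 41 perigonadal Slc peaks, 14.6% (6.88 to 28.4%), beside 13.6%. Positions of peaks are those of the files, on mm10. The centres of the pairs lay 8 to 82 bp apart and the overlaps measured 112 to 185 bp.

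The tallest pair lay in intron 3 of 17 of Slc25a12, which encodes the mitochondrial aspartate-glutamate carrier of the malate-aspartate shuttle, 28.4 kb from its promoter (chr2:71339052-71339254 in inguinal fat). It scored 31.6 in the inguinal list, with an interval of 22.8 to 42.7, and 37.9 in the perigonadal list (27.4 to 51.1). It ranked 57 and 54 in the lists, and Slc25a12 was the only protein-coding gene within 50 kb. The second lay in intergenic sequence 18 kb from the promoter of Slc7a15, a gene of the amino acid transporter family (chr12:8521437-8521639), with 24.1 (16.5 to 34) and 18.5 (11.5 to 28.3).

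The Slc29a1 promoter pair, whose sequence is given above, lay at chr17:45592811-45593013 and scored 18.1 (11.6 to 26.9) and 22 (14.3 to 32.5). Around it each list had a peak of its own. In the inguinal list this peak scored 12 and lay at the transcription end, 7.77 kb from the promoter. In the perigonadal list it scored 23.8 and lay in exon 3 of 12, 2.30 kb from the promoter (chr17:45590001-45590185). Up to 8 protein-coding genes lay within 50 kb of these peaks, Slc35b2 among them, so the assignment to Slc29a1 rests on the nearest promoter.

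The other pairs were lower in at least 1 list. Slc1a3 encodes the glutamate transporter GLAST. Its pair, in intron 3 of 9, scored 7.52 (3.61 to 13.8) in the inguinal list, from 10 tags, and 22 (14.3 to 32.5) in the perigonadal list (chr15:8682975-8683159). The perigonadal peak is annotated as a LINE repeat and the inguinal one, with a centre 40 bp away, is not. Slc6a6 encodes the taurine transporter. The pair 20.3 kb upstream of it scored 6.77 in the inguinal list, resting on 9 tags, and 11.5 in the perigonadal list (chr6:91663616-91663800). A second inguinal peak, 3.74 kb upstream, scored 9.78 and had no partner. Slc16a10 belongs to the monocarboxylate family but carries aromatic amino acids. Its intron 1 pair, 39.9 kb from the promoter (chr10:40102251-40102453), scored 9.78 and 10.6. Scores of different lists are not on a common scale, so these values give no direction between depots.

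Sharing was also counted by height, and each solute carrier interval took in the share of all peaks. Of the inguinal Slc peaks above 12 tags, 4 of 10 were shared, 40% (16.8 to 68.7%), beside 57.7% of all such peaks. In the perigonadal list 5 of 15 were, 33.3% (15.2 to 58.3%), beside 43.1%. Among lower peaks 2 of 10 inguinal ones were shared, 20% (5.67 to 51%), beside 7.09% of all, and 1 of 26 perigonadal ones, beside 3.28%. The partner could have any height in these counts. The Slc29a1 promoter pair was the only one of the 6 pairs within 10 kb of the promoter, so that in this range 1 of 18 perigonadal Slc peaks was shared, 5.56% (0.988 to 25.8%), beside 13.8% of all.

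**Figure D2:**
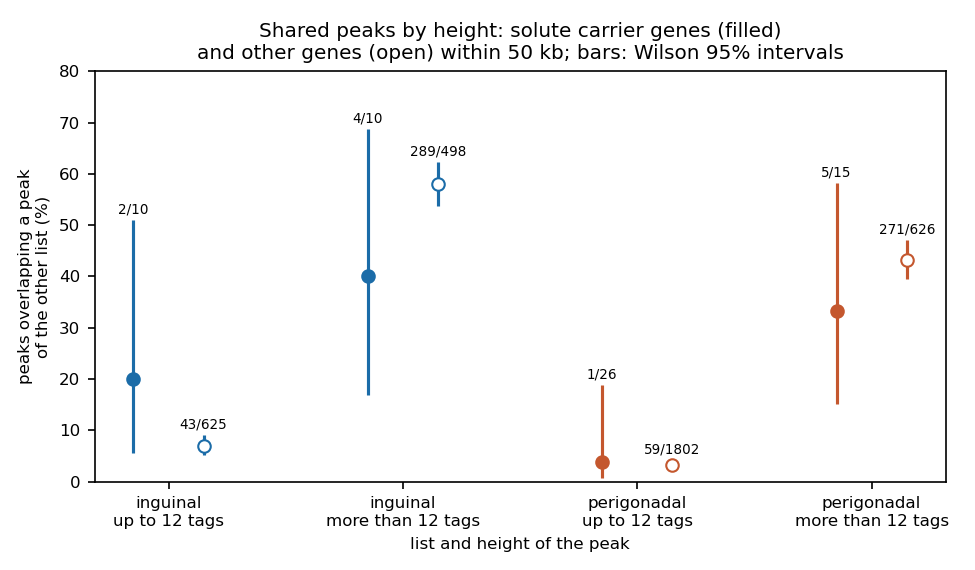
Percent of peaks that overlap a peak of the other list (vertical axis) by list and height, for solute carrier genes (filled) and other genes (open) within 50 kb, with counts and Wilson 95% intervals. The solute carrier intervals, 16.8 to 68.7% and 15.2 to 58.3% for peaks of more than 12 tags, span the values of the other genes.

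Slc10a6 and Slc25a51 had a peak in both lists at different sites. Slc10a6 encodes a carrier of sulfated steroids. Its inguinal peak in intron 3 of 5 scored 7.52 and its perigonadal peak in intron 1 of 5 scored 12.3, with centres 6.71 kb apart. Slc25a51 encodes the mitochondrial NAD carrier. Its inguinal peak scored 8.27 and its perigonadal peak 10.6, 5.20 kb apart and both in intron 5 of 5 of Shb, an adaptor gene next to it. Of the 14 inguinal Slc peaks without a partner, 3 had a perigonadal peak within 10 kb, 21.4% (7.57 to 47.6%), beside 7.95% of all such peaks. Of the 35 perigonadal ones, 3 had an inguinal peak within 10 kb, 8.57% (2.96 to 22.4%), beside 3.99%.

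Peaks without a partner made up the rest, 14 inguinal and 35 perigonadal. For these the other list had no called peak at the site. The tallest was the perigonadal Slc39a10 promoter peak, with a score of 36.1 (25.9 to 49) from 41 tags and rank 59 (chr1:46853546-46853730). The nearest inguinal peak was 2277 kb away. The tallest inguinal one scored 18.8 (12.2 to 27.8) and lay 19 kb upstream of Slc35b1, a transporter of the endoplasmic reticulum membrane, in intron 2 of 7 of Fam117a (chr11:95365796-95365998). A lower peak of 8.27 lay 0.859 kb from it in the same intron. Without a partner the median score was 8.27 (inguinal) and 8.82 (perigonadal), and 12 perigonadal Slc peaks were at exactly 8.82, or 10 tags.

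By substrate, amino acid and peptide transporters, the largest class, gave the most genes in the perigonadal list, and mitochondrial carriers the most in the inguinal list. Of 71 amino acid and peptide transporters in the table, 3 had an inguinal peak, 4.23% (1.45 to 11.7%), beside 4.25% of all protein-coding genes. A perigonadal peak was found for 9, 12.7% (6.81 to 22.4%), beside 8.88%. The 3 inguinal genes, Slc7a15, Slc1a3 and Slc6a6, were also perigonadal, each with a shared pair, a number too small to set against the 42.3% of all genes with an inguinal peak. The perigonadal genes included 4 of the 7 members of family 1, 57.1% (25 to 84.2%) beside the 8.88% of all protein-coding genes. This family was singled out among 51 after its values were seen, so the share is a description only. Besides Slc1a3 these were Slc1a7, a glutamate transporter of the retina, with 12.3 in intron 3, and 2 neutral amino acid transporter genes. Slc1a5 had a peak in its last exon with 8.82 and another in intron 5 with 7.05, which lay 6.05 kb apart. Slc1a4 had 1 of 7.93 in intron 1. Slc7a10, whose product Asc-1 is known as a surface marker of white adipocytes, had a peak of 8.82 in intron 1, 3.42 kb from its promoter and in a LINE repeat. Slc6a15 scored 7.05. The peak assigned to Slc36a3, with 8.82, lay in the 3′ UTR of its neighbour Slc36a2.

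Mitochondrial carriers of family 25 had peaks at 4 of 47 genes in each list, 8.51% (3.36 to 19.9%), and at 6 in either. Over all protein-coding genes the shares were 4.25% (inguinal) and 8.88% (perigonadal). Beyond Slc25a12 and Slc25a51, the inguinal list had Slc25a5, which encodes an adenine nucleotide translocase, with 12 at 8.90 kb, and Slc25a37, the mitoferrin gene for mitochondrial iron import, with 8.27 in intron 1. The perigonadal list had Slc25a30 with 9.70 and Slc25a13 with 7.93. Slc25a13 encodes the second aspartate-glutamate carrier, so that both genes of this carrier pair had a perigonadal peak, one tall and one of 9 tags.

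Nucleoside and nucleotide sugar transporters had peaks at 3 of 35 genes in the inguinal list, 8.57% (2.96 to 22.4%), beside 4.25% of all protein-coding genes. In the perigonadal list they had peaks at 2 of 35, 5.71% (1.58 to 18.6%), beside 8.88%. All of these genes but Slc35f3 held more than 1 peak in a list. Slc29a1 had 2 in each list, Slc35b1 had the inguinal pair in Fam117a, and Slc35b4, a nucleotide sugar transporter gene, had 2 perigonadal peaks in intron 1 that lay 0.568 kb apart. The taller of them scored 16.7 (10.1 to 26.2) at chr6:34173328-34173512 and the lower 9.70. Slc35f3 had an inguinal peak of 10.5 at 18.8 kb upstream.

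Metal transporters had no inguinal peak assigned to any of 31 genes, 0% (0 to 11%), beside 4.25% of all protein-coding genes. Perigonadal peaks were assigned to 3 of them, 9.68% (3.35 to 24.9%), beside 8.88%. Slc39a10 stood well above the other 2. Slc30a1, which encodes the zinc exporter ZnT1, scored 8.82 at 5.95 kb upstream, and Slc11a2, the gene of the iron transporter DMT1, scored 8.82 in intron 5. An inguinal peak of 10.5 lay inside Slc39a8 of this class but was assigned to 4933401H06Rik. Perigonadal peaks inside Slc30a7 (10.6) and Slc39a11 (8.82) were also assigned to other genes.

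Carboxylate transporters had a perigonadal peak at 4 of 19 genes, 21.1% (8.51 to 43.3%), beside 8.88% of all protein-coding genes. An inguinal peak was found at 1 of 19, 5.26% (0.935 to 24.6%), beside 4.25%. Both intervals take in the share of all genes. Slc13a2, the gene of a sodium-dicarboxylate cotransporter, had an intron 1 peak of 17.6 (10.8 to 27.2) at chr11:78411852-78412036. Slc16a6 had 1 of 13.2 in intron 1, 4.90 kb from its promoter, and Slc16a12 had 1 of 8.82 in intron 1.

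Vitamin and choline transporters had perigonadal peaks at 3 of 19 genes, 15.8% (5.52 to 37.6%), beside 8.88% of all protein-coding genes. An inguinal peak was found at 1, 5.26% (0.935 to 24.6%), beside 4.25%. Slc19a1, the reduced folate carrier gene, had 2 perigonadal peaks 11.7 kb apart, of 13.2 in its intron 5 and of 8.82 inside its neighbour Col18a1. Slc44a1, a choline transporter gene, scored 8.82 at 2.95 kb upstream, and Slc46a3 scored 7.05. The inguinal peak, of 7.52, was in intron 4 of Slc19a3, a thiamine transporter gene.

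Transporters of inorganic anions and bicarbonate had inguinal peaks at 2 of 26 genes, 7.69% (2.14 to 24.1%), and perigonadal peaks at 3, 11.5% (4 to 29%), beside the 4.25% and 8.88% of all protein-coding genes. The perigonadal peak on the promoter of Slc26a6, an anion exchanger gene, scored 11.5. Slc20a2, a phosphate transporter gene, scored 8.82 within the neighbouring Smim19, and Slc26a4, the pendrin gene, had 2 low peaks of 7.93 and 7.05 that lay 13.8 kb apart. The inguinal ones were Slc4a5, a bicarbonate cotransporter gene, with 8.27 in an LTR repeat, and Slc26a7 with 7.52 at 600 bp. None of these 6 peaks rested on more than 13 tags.

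No peak assigned to the remaining classes within 50 kb scored above 14.1. Over all protein-coding genes the shares with a peak were 4.25% (inguinal) and 8.88% (perigonadal). The lipid and bile acid class had 1 of 16 genes in each list, 6.25% (1.11 to 28.3%), Slc10a6 described above. Transporters of major cations and chloride had an inguinal peak at 1 of 33 genes, 3.03% (0.537 to 15.3%). This was Slc8a3, a sodium-calcium exchanger gene, with 7.52. In the perigonadal list the class had peaks at 3 of 33, 9.09% (3.14 to 23.6%). Among them were Slc24a3 with 8.82 and Slc24a4 with 7.05, both genes of exchangers of sodium, calcium and potassium. Organic ion transporters had 1 of 40 in the inguinal list, 2.5% (0.443 to 12.9%). It was Slc22a3, an organic cation transporter gene, with 10.5. In the perigonadal list the class had 2 of 40, 5% (1.38 to 16.5%). These were Slc22a23 with 14.1 at 34 kb upstream and Slc22a12, the urate transporter gene, with 8.82 inside Nrxn2. Sugar transporters had no inguinal peak assigned to any of 33 genes, 0% (0 to 10.4%). They had 1 perigonadal peak, Slc45a3 with 8.82, or 3.03% (0.537 to 15.3%) of the genes. An inguinal peak of 8.27 inside Slc2a9 of this class was assigned to 4930487D11Rik. Slc9a3r1, counted by its name, encodes an adaptor protein and not a transporter. It had a perigonadal peak of 10.6 in its 5′ UTR, 150 bp from the promoter.

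**Figure D3:**
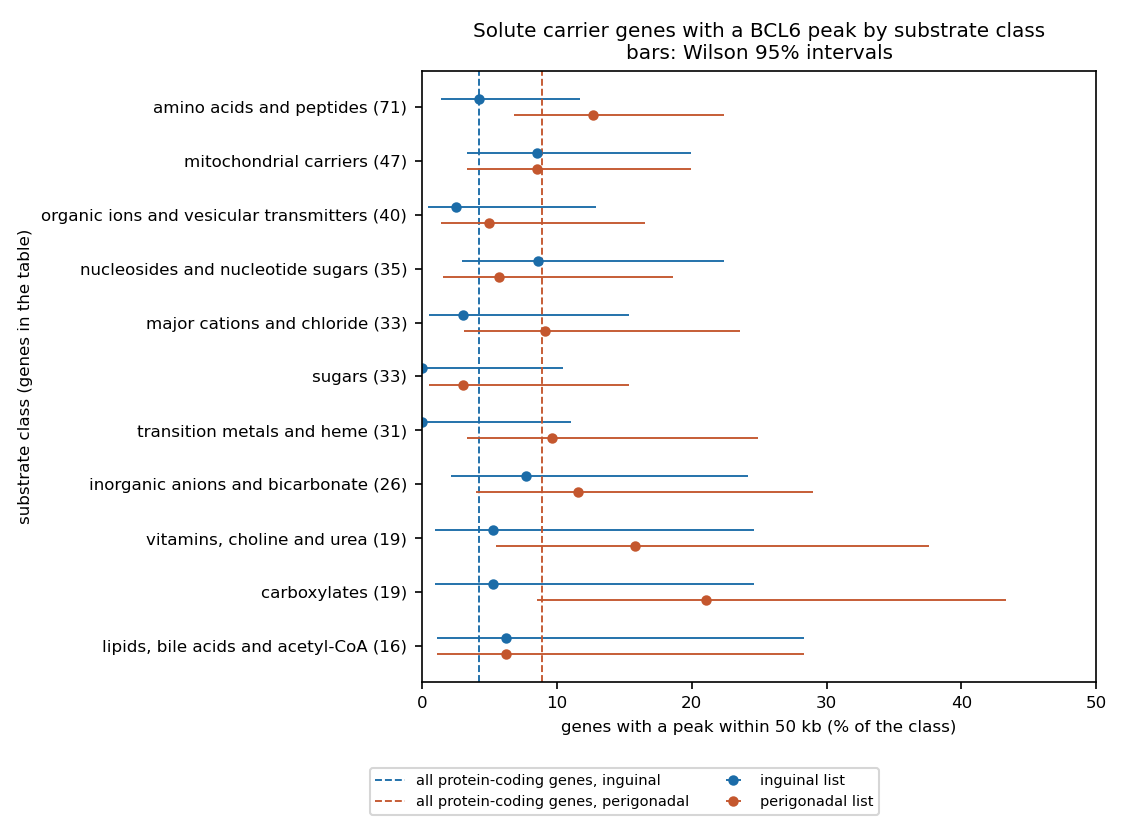
Percent of genes of each substrate class with a peak within 50 kb (horizontal axis) in each list, with Wilson 95% intervals as bars, the number of genes in brackets and the share of all protein-coding genes as dashed lines (4.25% and 8.88%). Every interval takes in the dashed line of its list; the 4 Slc-named genes that encode no transporter are not drawn.

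The peaks of the solute carriers lay mostly away from promoters. Within 1 kb lay 2 of 20 inguinal peaks, 10.0% (2.79 to 30.1%), beside 11% of all inguinal peaks within 50 kb, and 4 of 41 perigonadal peaks, 9.76% (3.86 to 22.5%), beside 9.96%. These were Slc29a1 and Slc26a7 in the inguinal list and Slc39a10, Slc29a1, Slc26a6 and Slc9a3r1 in the perigonadal list. The median distance was 18.5 kb for inguinal and 11.3 kb for perigonadal peaks, beside 13.7 and 13 kb for all. Introns held 12 of 20 inguinal peaks, 60% (38.7 to 78.1%), beside 51.9%, and 26 of 41 perigonadal peaks, 63.4% (48.1 to 76.4%), beside 51.2%. Intergenic sequence held 6 of 20 inguinal peaks, 30% beside 33.9%, and 7 of 41 perigonadal peaks, 17.1% (8.53 to 31.3%), beside 33.7%. The perigonadal intergenic interval lies below the share of all peaks. It is 1 of many shares compared here, and no test was made.

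Many of the peaks were inside the transporter gene itself. This held for 11 of 20 inguinal peaks, 55% (34.2 to 74.2%), beside 49.4% of all inguinal peaks within 50 kb that lay inside the gene they were assigned to. It held for 28 of 41 perigonadal peaks, 68.3% (53 to 80.4%), beside 48.3%. A peak was counted as inside its gene only if the symbol of the annotated transcript equalled the deposited gene name. Genes listed under an older symbol therefore count as another gene, which can lower the shares of all peaks. The size of this effect was not tested. The perigonadal interval lies above the share of all peaks, but the same 41 peaks gave the low intergenic share. The difference in share was smaller in the inguinal list, where the interval took in the share of all peaks. Among protein-coding genes with a perigonadal peak, the median length was 37.5 kb for Slc genes and 35.2 kb for all. With an inguinal peak it was 75.0 and 37.8 kb. The shares of all peaks also take in genes that are not protein-coding, and the part of gene length was not tested. Another gene held 3 of 20 inguinal peaks, 15% (5.24 to 36%), beside 16.6% of all. It held 6 of 41 perigonadal peaks, 14.6% (6.88 to 28.4%), beside 18% of all. For 8 of 20 and 12 of 41 peaks, 1 protein-coding gene had any part within 50 kb, and 3 peaks of each list had a second Slc gene that near. Neighbours were not counted for all peaks, so these last numbers have no background.

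Annotated repeats held 2 of 20 inguinal peaks, 10.0% (2.79 to 30.1%), beside 19.5% of all, and 9 of 41 perigonadal peaks, 22% (12 to 36.7%), beside 22%. The authors' focus ratio, a fraction that describes how tightly tags lie around the peak centre, ran from 0.682 to 0.944 with a median of 0.793 for the inguinal and from 0.656 to 0.964 with a median of 0.842 for the perigonadal peaks. The medians of all peaks within 50 kb were 0.812 and 0.833. The shared Slc7a15 peak had the lowest ratio of the perigonadal peaks, 0.656.

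**Figure D4:**
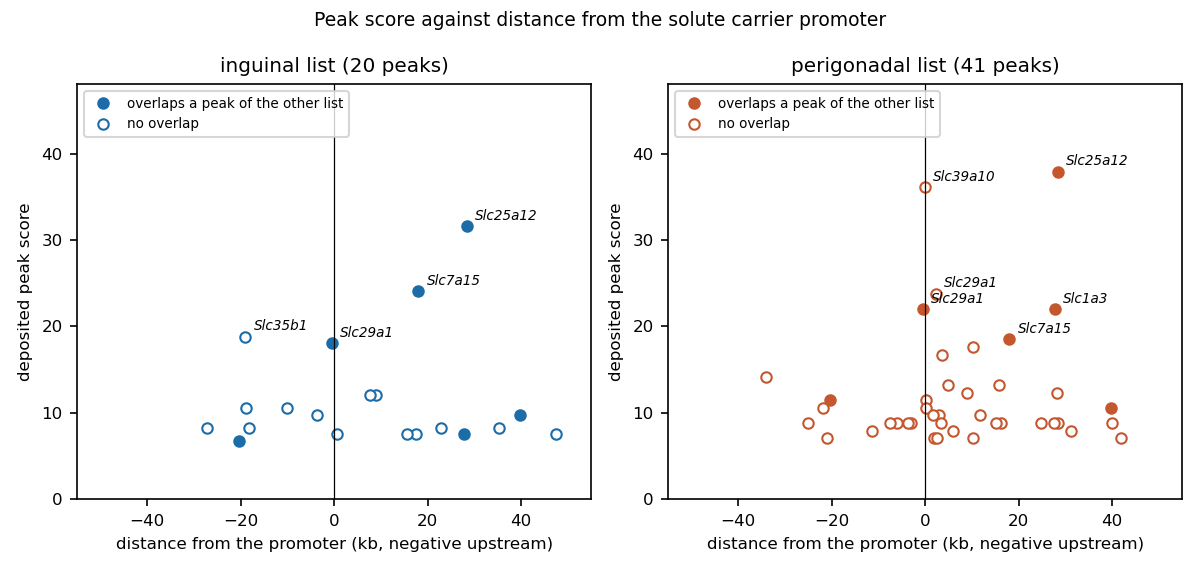
Deposited score (vertical axis) against distance from the promoter in kb (horizontal axis, negative upstream) for the 20 inguinal and 41 perigonadal peaks, shared peaks filled and peaks of 18 or more named. The named peaks lie within 1 kb of the promoter or downstream of it, except that of Slc35b1 at 19 kb upstream.

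Several perigonadal peaks lay close beyond the limit of 50 kb. Just inside it were Slc8a3 at 47.5 kb and Slc16a10 at 39.9 kb in the inguinal list, with 7.52 and 9.78, and Slc6a15 at 42.0 kb and Slc16a12 at 40.1 kb in the perigonadal list, with 7.05 and 8.82. Just outside were the inguinal peaks of Slc12a2 at 57.0 kb and Slc45a1 at 82.6 kb, each with 8.27. In the perigonadal list they were Slc24a2 at 50.1 kb with 8.82 and Slc40a1, the gene of the iron exporter ferroportin, at 51 kb with 15.9, followed by a further peak of Slc35b4 at 52.9 kb with 10.6.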

How the data were processed

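Peak lists of the 2 BCL6 libraries were used, and those of the inputs were not analysed here. Alignment and peak calling were done by the authors with Bowtie 1.2 and HOMER on mm10, per the submitters' processing notes. Peaks were annotated with HOMER, per the file headers. The inguinal header names a false discovery rate and the perigonadal one names none, so the limits for calling may differ. The peak score and the focus ratio, a fraction, are deposited values. Depth is unknown, because no source used here states the total behind the scaled scores.

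Peaks were joined by overlap of at least 1 bp with Python 3.11.15 and pandas 2.3.3. The recovery of the score step and the overlap of peaks were checked on simulated data, and the other steps were not. Genes were matched by Entrez number to a RefSeq table of GRCm38.p6, in which all 45 were found. Substrate classes followed the family number, except that 4 Slc-named genes that encode no transporter were set apart. Named were shared pairs, the 8 tallest unshared peaks per list, the 3 top genes per class, promoter peaks, genes with several peaks, and 2 peaks on either side of the distance limit. Slc1a4, Slc7a10, Slc36a3 and Slc25a13 fell outside this rule and were named after their values were seen. So were Slc39a8, Slc30a7, Slc39a11 and Slc2a9, whose peaks were assigned to other genes. A gene that the rule takes in is counted but not reported here by name. Members and lists were chosen with earlier results of these data known. Other limits on distance, height, overlap, repeats and gene names were tried.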

Additional observations from a re-analysis of the deposited data

How the results depend on the processing

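Of 51 values under other settings, 31 stayed within their limit. The limit was 1.5 times for a count and the Wilson 95% interval for a share. For a median score it was the Poisson 95% interval of a single peak with the median tags. That is wider than an interval of the median, so staying inside it says little. Within 10 kb, 5 inguinal and 18 perigonadal peaks were left, at 4 and 16 genes, or 1.07% and 4.28% of Slc genes (1.81% and 3.98% of all genes), and 5.56% of the perigonadal peaks were shared (13.8% of all). With more than 12 tags, 10 and 15 peaks were left at 9 and 14 genes, or 2.41% and 3.74% of Slc genes (1.88% and 2.42% of all). With the perigonadal list held to the inguinal length, it gave 21 peaks at 19 genes, 5.08% of Slc genes (4.37% of all), and 28.6% of the peaks were shared (26.1% of all). Of these gene shares the inguinal one within 10 kb was below that of all genes and the others above. Each had a Wilson 95% interval that took in the share of all genes. The settings use overlapping subsets of the same peaks, so they are not separate observations. In these settings fewer peaks are counted by construction. Counting every gene that spans a peak or has an end within 50 kb, added after the data were seen, gave 13.4% and 25.7% of Slc genes, beside 12.1% and 24.9% of all genes. Within 5 kb of the promoter lay 34.1% (21.6 to 49.5%) of perigonadal Slc peaks, beside 27.7% of all. In the inguinal list it was 15% (5.24 to 36%), beside 26% of all, which is the other direction. Both intervals take in the share of all peaks. The 6 shared pairs were also counted with an overlap of 50% of the shorter peak and with centres within 500 bp. The planned search of whole peaks for the motif was not run, since no genome was used. Each depot had 1 library, so leaving out a replicate was not possible.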

Other observations

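Some solute carrier genes held BCL6 peaks that were not counted in the report. Inside Slc genes lay 7 further inguinal and 17 further perigonadal peaks. Of these, 3 and 10 were assigned to another gene, 4 and 6 to the Slc gene itself but beyond 50 kb, and 1 perigonadal peak to Slc66a2 under its older symbol. The tallest was shared, in an intron of Slc24a4, a sodium, potassium and calcium exchanger gene, with 16.5 in the inguinal list (chr12:102236476-102236678) and 19.4 in the perigonadal list, and was assigned to Rin3 at 46.5 kb. Perigonadal peaks also lay in introns of Slc24a3, with 15.9, and of Slc8a2, a sodium-calcium exchanger gene, with 14.1. Slc24a4 and Slc24a3 were thus represented in the report only by their lower peaks of 7.05 and 8.82.

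Beyond 50 kb, 9 inguinal and 17 perigonadal peaks had an Slc gene as the nearest promoter, and 4 of each list were shared. The 4 and 6 distant peaks inside their own gene are among them. The tallest shared one was 94.7 kb upstream of Slc22a23, an orphan member of the organic ion family, with 19.6 in the inguinal list (chr13:34439743-34439945) and 12.3 in the perigonadal list. The others were at Slc24a3 (10.5 and 8.82), Slc38a4, an amino acid transporter gene (9.03 and 7.05), and Slc12a2, a sodium-potassium-chloride cotransporter gene (8.27 and 10.6). These genes were named after their values were seen, and no test was made.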
